A study of Mus musculus with 4 samples.

Results

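The genes described here are the sphingosine-1-phosphate (S1P) receptor genes S1pr1, S1pr2 and S1pr4, the S1P receptor antagonist Cd69 and the transcription factor gene Foxo1, 5 genes of the 19938 that were named on the array. They were chosen by symbol for their part in thymic egress, and each was measured by a single probe set. All 5 lay above background, which was set at log2 5.87, the 95th percentile of the mean levels of 1194 olfactory and vomeronasal receptor genes.

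Mature T cells leave the thymus by following S1P, a lipid that is abundant in blood and scarce in thymic tissue. They sense it through S1PR1, a receptor coupled to the inhibitory G protein. Newly selected cells carry CD69, which binds S1PR1 and draws it from the surface. In T cells FOXO1 raises transcription of Klf2, and KLF2 raises S1pr1.

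CD4+ thymocytes came from 8-week-old C57BL/6n mice, either miR-142-/- (pool of 4 mice, 1 female and 3 males) or wild type (WT, miR-142+/+, pool of 5 mice, 3 females and 2 males). CD8+ cells were depleted with magnetic beads, and each pool was sorted by flow cytometry into mature CD4+CD8-CD69-Qa2+ cells (Qa2+) and less mature CD4+CD8-CD69+Qa2- cells (Qa2-). RNA of each population was hybridised to 1 array, giving 4 arrays in all and 1 per group. One array, titled and sorted as miR-142-/- Qa2-, carries a free description that says Qa2+. Its title was followed.

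miR-142-/- cells lack the microRNA below, which is abundant in blood cells. Its mature strands are shown with the seed, bases 2 to 8, in capitals, since the seed is the part that pairs with targets (RefSeq, GRCm38.p6, plus strand, chr11:87756867-87756887 and chr11:87756903-87756925).
mmu-miR-142a-5p: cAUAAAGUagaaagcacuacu
mmu-miR-142a-3p: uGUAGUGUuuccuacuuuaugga

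The Mir142 probe set read log2 4.88 in miR-142-/- and 9.41 in WT Qa2+ cells, and 5.29 in miR-142-/- and 10.11 in WT Qa2- cells, so it lay below background on both miR-142-/- arrays. The sex-linked transcripts went against the labelled mixed pools. Xist was below background in miR-142-/- (4.83 and 5.06) and high in WT (12.14 and 12.67), and Eif2s3y, Kdm5d and Uty of the Y chromosome were between 9.72 and 10.58 in miR-142-/- and between 4.29 and 5.09 in WT. Genotype and this sex difference cannot be told apart on these arrays. Both sorts expressed the CD4 T cell genes Cd4, Cd3e and Cd5 above log2 12 on every array. Of the same list, Cd3d lay between 10.79 and 11.06 and Zbtb7b between 9.63 and 10.73. Cd8a lay between 7.25 and 7.53 and Cd8b1 between 8.75 and 9.98, above background although CD8 was sorted against.

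S1pr1 and S1pr4 were higher in Qa2+ than in Qa2- cells and S1pr2 was lower, in both genotypes. Foxo1 and its target Klf2 were also higher in Qa2+ cells. Between genotypes S1pr1 stood out by size, 3.25-fold lower in miR-142-/- Qa2- cells, while S1pr2, Cd69 and Foxo1 differed by at most 0.18 on the log2 scale in either population. With 1 array per group the genotype differences, and the stage differences within a genotype, have no replicate check and no test. The stage difference averaged over the genotypes was tested with limma. In sorted bulk RNA, fewer cells of a type and less RNA per cell cannot be told apart.

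S1pr1, the egress receptor, read log2 11.51 in miR-142-/- and 11.97 in WT Qa2+ cells, against 8.57 in miR-142-/- and 10.27 in WT Qa2- cells. The miR-142-/- Qa2- array was the lowest. S1pr1 was 7.72-fold higher in Qa2+ than in Qa2- cells of miR-142-/- mice and 3.26-fold higher in those of WT mice. Ranked from the highest stage difference among 12591 genes above background, it was number 2 in miR-142-/- and number 12 in WT. The average over genotypes was 2.33 ± 0.24 (limma log2 difference ± SE, 2 pairs of arrays, Benjamini-Hochberg adjusted p = 0.00175).

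S1pr4, a receptor expressed mainly by lymphoid and other blood cells, read log2 9.84 in miR-142-/- and 10.40 in WT Qa2+ cells, against 8.52 in miR-142-/- and 8.91 in WT Qa2- cells. Within each population miR-142-/- was the lower array. S1pr4 was higher in Qa2+ cells by 2.49-fold in miR-142-/- and 2.82-fold in WT, numbers 49 and 19 from the highest stage difference. Averaged over genotypes, S1pr4 rose by 1.41 ± 0.10 (limma log2 difference ± SE, Benjamini-Hochberg adjusted p = 0.000456).

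S1pr2, which couples to G12 and G13 proteins and restrains migration, ran the other way. It read log2 7.98 in miR-142-/- and 8.02 in WT Qa2+ cells, against 8.60 in miR-142-/- and 8.73 in WT Qa2- cells. The arrays of one stage lay close together. Compared with Qa2- cells, Qa2+ cells read 1.55-fold less S1pr2 in miR-142-/- and 1.63-fold less in WT. Averaged over genotypes it fell by 0.67 ± 0.10 on the log2 scale (limma difference ± SE, Benjamini-Hochberg adjusted p = 0.00593).

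The remaining receptors were dim. S1pr5, which serves the egress of natural killer cells, read log2 5.83 in miR-142-/- and 5.80 in WT Qa2+ cells, against 6.15 in miR-142-/- and 6.04 in WT Qa2- cells, and its stage difference of -0.28 did not pass the test (limma, Benjamini-Hochberg adjusted p = 0.105). S1pr3, best known from blood vessels and heart, was above background on the miR-142-/- Qa2- array alone, at 6.20, with the other arrays between 5.63 and 5.78.

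Cd69 read log2 10.55 in miR-142-/- and 10.55 in WT Qa2+ cells, against 11.51 in miR-142-/- and 11.33 in WT Qa2- cells. Cd69 was lower in Qa2+ than in Qa2- cells, by 0.96 in miR-142-/- and 0.77 in WT on the log2 scale. Because CD69 protein was used to sort the cells, this difference describes the sort and is given without a test. The Cd69 transcript remained far above background in the cells sorted as CD69-.

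Foxo1 read log2 11.37 in miR-142-/- and 11.43 in WT Qa2+ cells, against 10.97 in miR-142-/- and 10.94 in WT Qa2- cells. It was 1.32-fold higher in Qa2+ than in Qa2- cells of miR-142-/- mice and 1.40-fold higher in those of WT mice, the smallest stage difference of the 5 genes. Averaged over genotypes it rose by 0.44 ± 0.10 (limma log2 difference ± SE, Benjamini-Hochberg adjusted p = 0.0263).

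Klf2, the factor between FOXO1 and S1pr1, read log2 9.47 in miR-142-/- and 10.34 in WT Qa2+ cells, against 8.53 in miR-142-/- and 9.004 in WT Qa2- cells. It rose by 1.14 on average (limma, Benjamini-Hochberg adjusted p = 0.00183), with stage differences of 0.94 in miR-142-/- and 1.33 in WT. Like S1pr1 and S1pr4, it was lowest in miR-142-/- Qa2- cells and highest in WT Qa2+ cells.

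**Figure D1:**
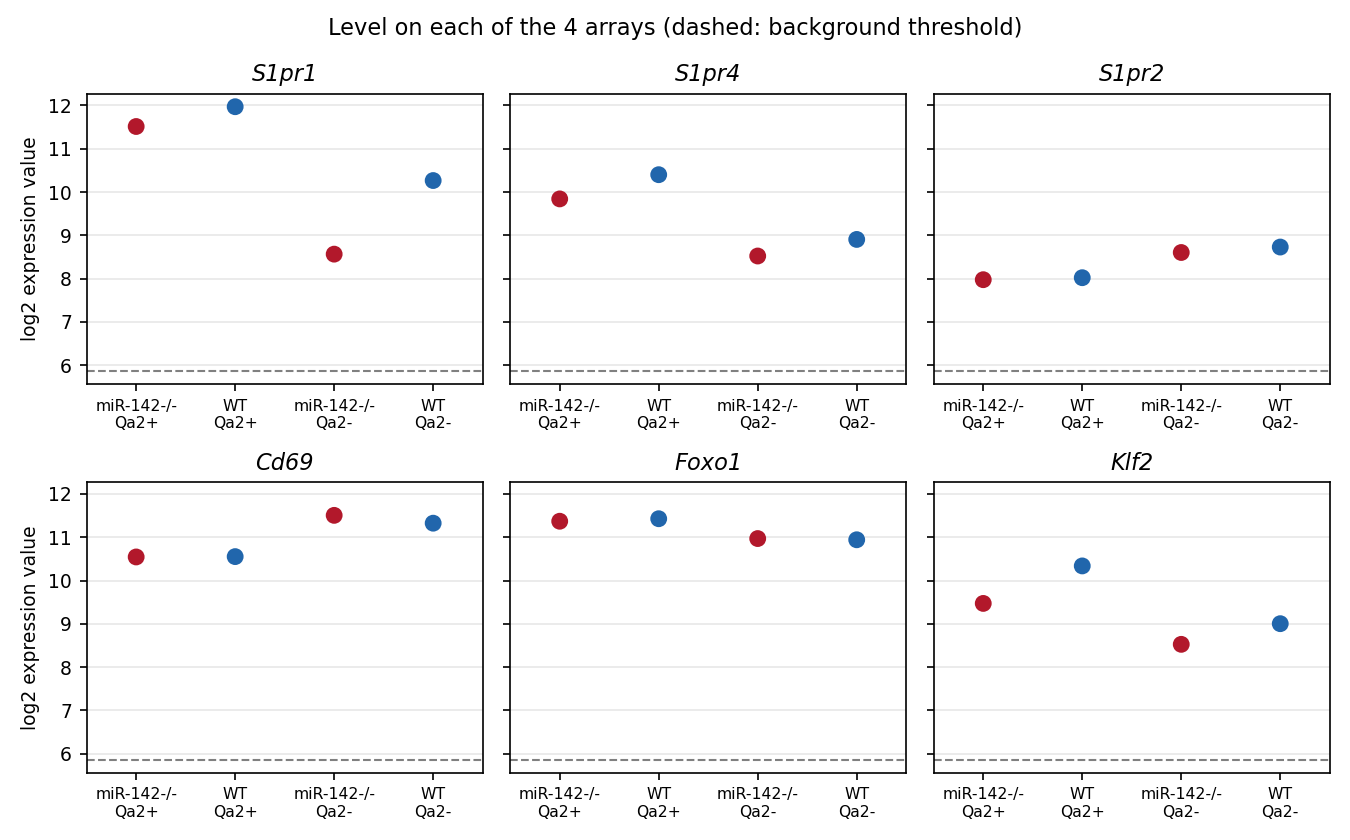
Log2 expression value (vertical axis) of S1pr1, S1pr4, S1pr2, Cd69, Foxo1 and Klf2 on each array, 1 point per array, with miR-142-/- in red and WT in blue and the background threshold dashed at 5.87. S1pr1 spans 8.57 to 11.97, while both genotypes lie close together for S1pr2, Cd69 and Foxo1; levels of different genes are not comparable because their probes differ.

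All 4 of these genes that were not used for sorting passed the limma test, S1pr1, S1pr4 and Foxo1 upward and S1pr2 downward. Over all 12591 genes tested, 4.77% were called higher and 8.35% lower in Qa2+ cells. Higher genes made up 36.3% of the calls as deposited, 59.9% after centring the arrays on their medians and 56.1% after quantile normalization, and the 4 genes passed in the same direction under each. Centring shifted the median WT stage difference of all genes by 0.10. The genotypes form the pairs, so the spread in the fit is the difference between the stage differences of the 2 genotypes. A stage difference that depends on genotype, as read for S1pr1, counts as error there. The p-values rest mostly on this spread pooled over all genes. They do not measure the spread between mice or between pools of 1 genotype. By size, 2 of these 4 genes (S1pr1 and S1pr4) were at least 1.5-fold higher in Qa2+ cells and 1 (S1pr2) at least 1.5-fold lower, in each genotype, as deposited. Cd69 was also that much lower, but its difference describes the sort and is not counted. After centring, Foxo1 in WT also passed this size (0.59 on the log2 scale), while S1pr2 in miR-142-/- fell short of it after centring and quantile normalization (-0.56 and -0.58). That far apart were 2.65% of all genes upward and 3.64% downward in miR-142-/-, and 2.69% upward and 3.69% downward in WT. Leaving out the pairing of arrays by genotype ended every call, with Benjamini-Hochberg adjusted limma p-values of 0.348 for S1pr1, 0.321 for S1pr4 and S1pr2 and 0.33 for Foxo1.

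Of 5 CD4 T cell genes, Zbtb7b was lower in Qa2+ cells by 0.71 (limma, Benjamini-Hochberg adjusted p = 0.00448), and none of the others passed. Markers of other cells moved with stage as well. The mean level of 8 double-positive thymocyte markers was log2 7.91 in Qa2+ and 7.20 in Qa2- cells of miR-142-/- mice, and 7.97 in Qa2+ and 6.95 in Qa2- cells of WT mice, with 7 of 8 above background on every array and Rag2 below it throughout. Rag1, Dntt, Arpp21, Aqp11 and Ptcra were higher in Qa2+ cells, by 0.50 to 2.31 (limma, Benjamini-Hochberg adjusted p at most 0.0242). Cd8a and Cd8b1 were not, at -0.07 and -0.24 (adjusted p = 0.686 and 0.261). The mean of 6 regulatory T cell markers was 9.80 in Qa2+ and 9.53 in Qa2- cells of miR-142-/- mice, and 10.30 in Qa2+ and 9.87 in Qa2- cells of WT mice. Its members went both ways, with Foxp3, Il2ra and Ctla4 higher in Qa2+ cells by 1.91, 0.70 and 0.58 and Ikzf2 lower by 0.60 (limma, Benjamini-Hochberg adjusted p = 0.000456, 0.00489, 0.00965 and 0.00982). Tnfrsf18 and Gpr83 differed by -0.43 and -0.08 (adjusted p = 0.0633 and 0.664). The part of such cells in the receptor differences was not tested. Of 8 markers of endothelial cells, which express S1pr1 strongly, 3 and 1 were above background in miR-142-/- and WT Qa2+ cells, and 4 and 3 in miR-142-/- and WT Qa2- cells. Kdr, Tek and Emcn were below background on all 4 arrays. Cdh5, Tie1, Plvap and Lyve1 read at most 6.06 on any array. Pecam1, which T cells also express, read 11.25 in miR-142-/- and 10.89 in WT Qa2+ cells, against 10.71 in miR-142-/- and 10.67 in WT Qa2- cells. Its stage difference of 0.38 did not pass the limma test as deposited and passed after centring and quantile normalization (Benjamini-Hochberg adjusted p = 0.0655, 0.0206 and 0.0334).

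The stage difference of S1pr1 was larger in miR-142-/- than in WT by 1.24 on the log2 scale, number 21 from the highest of 12591 genes. At least 1.5-fold larger stage differences in miR-142-/- were found for 1.82% of genes, and at least 1.5-fold smaller ones for 1.60%. For S1pr4, S1pr2, Cd69 and Foxo1 this difference of differences lay between -0.19 and 0.08 as deposited, within the standard deviation of 0.22 seen among receptor genes at low signal, and for Klf2 it was -0.39. None of these was tested, since each rests on 1 array per group.

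**Figure D2:**
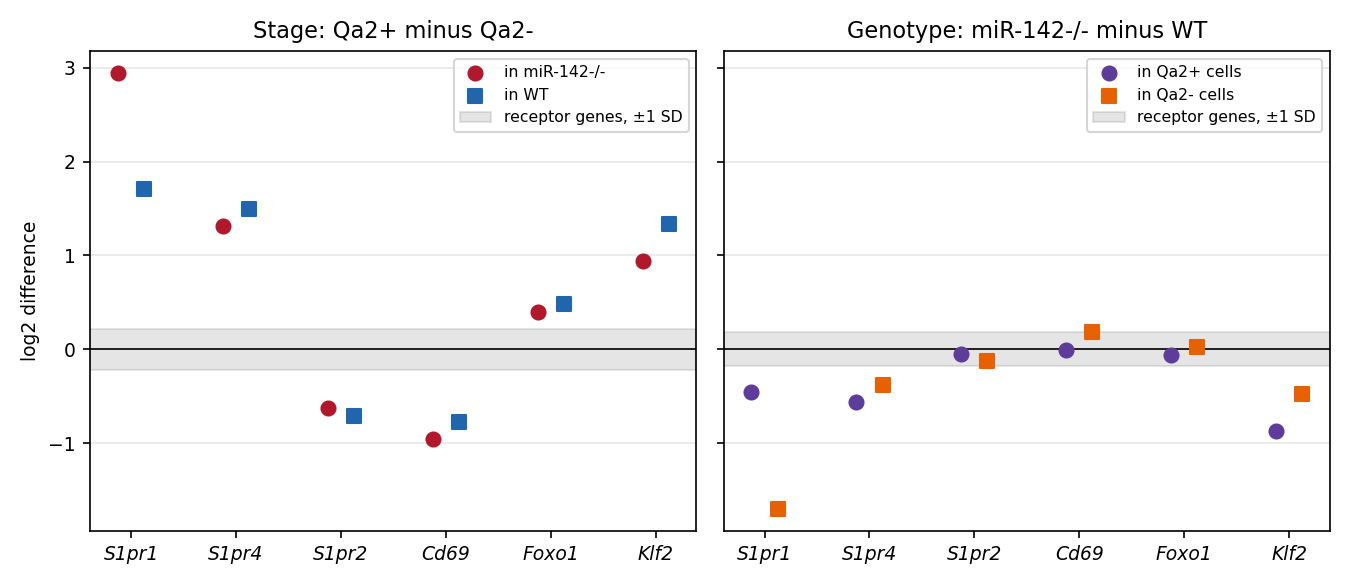
Log2 differences (vertical axis) by stage, Qa2+ minus Qa2- (left), and by genotype, miR-142-/- minus WT (right), for each gene, 1 symbol per comparison; the grey band is 1 standard deviation of olfactory and vomeronasal receptor genes, the wider of the pair of comparisons drawn. S1pr1 shows the widest gap between its symbols in both panels, with stage differences of 2.95 in miR-142-/- and 1.71 in WT.

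S1pr1 was lower in miR-142-/- cells of both stages, and the difference was the larger in Qa2- cells. It was 1.37-fold lower in miR-142-/- than in WT Qa2+ cells and 3.25-fold lower in miR-142-/- than in WT Qa2- cells, number 37 from the lowest genotype difference in Qa2- cells and number 934 in Qa2+ cells. As deposited, S1pr1 was the single one of the 5 genes at least 1.5-fold apart between genotypes, and that in Qa2- cells, where 3.74% of all genes were that much lower and 3.11% that much higher. In Qa2+ cells none of the 5 was that far apart as deposited, against 4.88% of genes lower and 4.56% higher, and S1pr4 was after centring, at -0.62 on the log2 scale.

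Comparing miR-142-/- with WT, S1pr4 was lower by 1.47-fold among Qa2+ cells and by 1.30-fold among Qa2- cells. Klf2 was lower by 1.82-fold in Qa2+ and 1.39-fold in Qa2- cells, so its genotype difference was the larger in Qa2+ cells and that of S1pr1 in Qa2- cells. The differences of S1pr2 were -0.05 in Qa2+ and -0.13 in Qa2- cells, those of Cd69 -0.01 and 0.18, and those of Foxo1 -0.06 and 0.03. Receptor genes had a standard deviation of 0.18 for this difference among Qa2+ cells and 0.15 among Qa2- cells. The interval of these small differences between mice is unknown.

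Markers of innate-like T cells differed between genotypes as well, in both populations. In Qa2- cells 4 of 7 were above background in miR-142-/- (mean log2 6.05) and 7 of 7 in WT (mean 8.28), and in Qa2+ cells 3 of 7 in miR-142-/- (mean 6.19) and 6 of 7 in WT (mean 6.87). Zbtb16 differed less in Qa2- cells (-0.68) than in Qa2+ cells (-1.73), the other way from Nkg7 (-3.47 and -0.45). Effector or recirculating T cell markers averaged 7.26 in miR-142-/- and 8.38 in WT Qa2- cells, and 7.38 in miR-142-/- and 8.50 in WT Qa2+ cells. Among them Itgb1 was higher in miR-142-/-, by 0.09 in Qa2- and 0.34 in Qa2+ cells. The part of either set of markers in the S1pr1 difference was not tested. S1pr5 and Tbx21, a receptor and a factor of natural killer cells, differed in Qa2- cells by 0.12 and -1.26.

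The genes with the level profile most like that of S1pr1 over the 4 arrays, each centred on its own mean, were Atp8b4 (Euclidean distance 0.45 in log2 units), Rflnb (0.81) and Ttc39b (0.82). Atp8b4, a flippase family gene, read log2 8.28 in miR-142-/- and 8.80 in WT Qa2+ cells, against 5.71, below background, in miR-142-/- and 7.58 in WT Qa2- cells. Tmem71 (0.07), the TGF-beta inhibitor gene Smad7 (0.18) and the sialyltransferase gene St8sia6 (0.22) were nearest to S1pr4, and Tox2 (0.03), the phosphodiesterase gene Pde4c (0.06) and Fkbp1a (0.07) nearest to Cd69. With 4 arrays such likeness is a description only.

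Promoters were examined for S1pr4 and S1pr2, whose stage differences had opposite directions, and for Klf2. RefSeq windows from 250 bases before to 50 after the gene start are printed on the gene's strand (GRCm38.p6: S1pr4 chr10:81500088-81500387, minus strand; S1pr2 chr9:20976744-20977043, minus strand; Klf2 chr8:72318812-72319111, plus strand). Capitals mark the KLF core CACCC on either strand (GGGTG on the printed one) and the longer KLF motif CCACACCC, which overlaps it.
S1pr4: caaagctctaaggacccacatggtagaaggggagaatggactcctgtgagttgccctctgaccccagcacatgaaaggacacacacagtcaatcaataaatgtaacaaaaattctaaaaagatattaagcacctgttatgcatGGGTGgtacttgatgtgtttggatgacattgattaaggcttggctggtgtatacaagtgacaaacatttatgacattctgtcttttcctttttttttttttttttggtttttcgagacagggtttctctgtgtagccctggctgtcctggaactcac
S1pr2: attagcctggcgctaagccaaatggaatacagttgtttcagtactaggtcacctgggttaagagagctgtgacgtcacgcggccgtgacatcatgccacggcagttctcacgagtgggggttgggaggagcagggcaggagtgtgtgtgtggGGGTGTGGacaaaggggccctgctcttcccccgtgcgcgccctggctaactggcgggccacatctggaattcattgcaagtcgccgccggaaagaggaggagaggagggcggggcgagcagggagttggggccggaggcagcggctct
Klf2: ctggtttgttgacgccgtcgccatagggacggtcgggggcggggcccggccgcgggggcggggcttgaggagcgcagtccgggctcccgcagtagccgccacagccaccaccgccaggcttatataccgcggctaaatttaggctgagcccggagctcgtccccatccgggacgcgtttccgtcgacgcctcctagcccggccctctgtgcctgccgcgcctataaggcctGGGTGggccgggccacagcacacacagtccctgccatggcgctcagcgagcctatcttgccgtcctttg

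The first base of the core stood at position -107 from the start in S1pr4, at -98 in S1pr2 and at -19 in Klf2. It was found in 57.5% of 32851 promoter windows of the same length, so its presence is common. The longer motif was found in S1pr2, the receptor gene that fell, and in 3.56% of windows. The FoxO motif GTAAACA, searched on both strands and present in 3.65% of windows, was in none of the windows of these 3 genes or of Foxo1. S1pr1 and Cd69 had no promoter entry.

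Of 19 genes that make, degrade or carry S1P, 14 were above background. None rose or fell in Qa2+ cells by limma at an adjusted p below 0.05 (0 higher and 0 lower, beside 4.77% and 8.35% of all genes). At an unadjusted p below 0.05, 1 was higher and 0 lower, where 3732 of all 12591 genes passed in either direction. The kinase gene Sphk2 differed between stages by 0.20, the lyase gene Sgpl1 by -0.04 and the phosphatase gene Sgpp1 by 0.07 (limma, Benjamini-Hochberg adjusted p = 0.232, 0.852 and 0.673). The transporter gene Spns2 differed by 0.26 (adjusted p = 0.145). Between genotypes Cers4, a ceramide synthase gene, was higher in miR-142-/- than in WT, by 1.76-fold among Qa2+ and 2.14-fold among Qa2- cells. It was the single gene of the 14 at least 1.5-fold apart in either population. Such a size was reached among Qa2+ cells by 4.56% of all genes upward and 4.88% downward. The matching shares for Qa2- were 3.11% upward and 3.74% downward, so 1 gene of 14 does not set this list apart. The median genotype difference of the list was 0.06 among Qa2+ cells and 0.14 among Qa2- cells, beside 0.00 over all genes in each.

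Of 17 genes above background that couple or desensitise the receptors, 4 rose and 2 fell in Qa2+ cells, which is 23.5% and 11.8% beside 4.77% and 8.35% of all genes. Those that rose include both arrestins, which draw activated receptors inside the cell, Arrb1 by 0.71 and Arrb2 by 0.38 (limma, Benjamini-Hochberg adjusted p = 0.00484 and 0.0439). The receptor kinase gene Grk6 rose by 0.45 and Rgs1, which shortens inhibitory G protein signalling, by 0.99 (adjusted p = 0.0308 and 0.0027). Rgs16, of the same family, fell by 0.74 (adjusted p = 0.00648), and the G protein gene Gnaq fell by 0.45, a call at the threshold (adjusted p = 0.0492) that was lost after centring (0.0662) and quantile normalization (0.0612). Gnai2, the main inhibitory G protein of lymphocytes, differed by 0.07, and the S1PR2 partners Gna12 and Gna13 by -0.37 and 0.03 (adjusted p = 0.681, 0.0529 and 0.868).

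Within this list Rgs1 was 2.06-fold lower in miR-142-/- than in WT Qa2+ cells, and in Qa2- cells it was lower by 2.65-fold. Gnaq was 2.21-fold higher in Qa2+ and 1.66-fold higher in Qa2- cells of miR-142-/- mice, and its relative Gna11 1.54-fold and 1.51-fold higher, both under 1.5-fold after centring. Arrb1, Arrb2 and Grk6 differed between genotypes by -0.26 to -0.03.

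Of 17 motility effector genes, 0 rose and 1 fell in Qa2+ cells, Arhgef6, an exchange factor for Rac and Cdc42, by 0.70 (limma, Benjamini-Hochberg adjusted p = 0.00495). The share that fell was 5.88%, beside 8.35% of all genes, and 4.77% of all genes rose. At an unadjusted p below 0.05, 0 of the list rose and 2 fell, where 3732 of all 12591 genes passed in either direction. Coro1a and Dock2, needed for lymphocyte migration, differed between stages by -0.09 and 0.00 (adjusted p = 0.593 and 0.987). Was, the actin regulator of Wiskott-Aldrich syndrome, was the single gene of the list at least 1.5-fold apart between genotypes, at -0.60 in Qa2+ and -0.43 in Qa2- cells. That size was reached by 4.88% of all genes downward and 4.56% upward in Qa2+ cells, and by 3.74% and 3.11% in Qa2- cells.

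**Figure D3:**
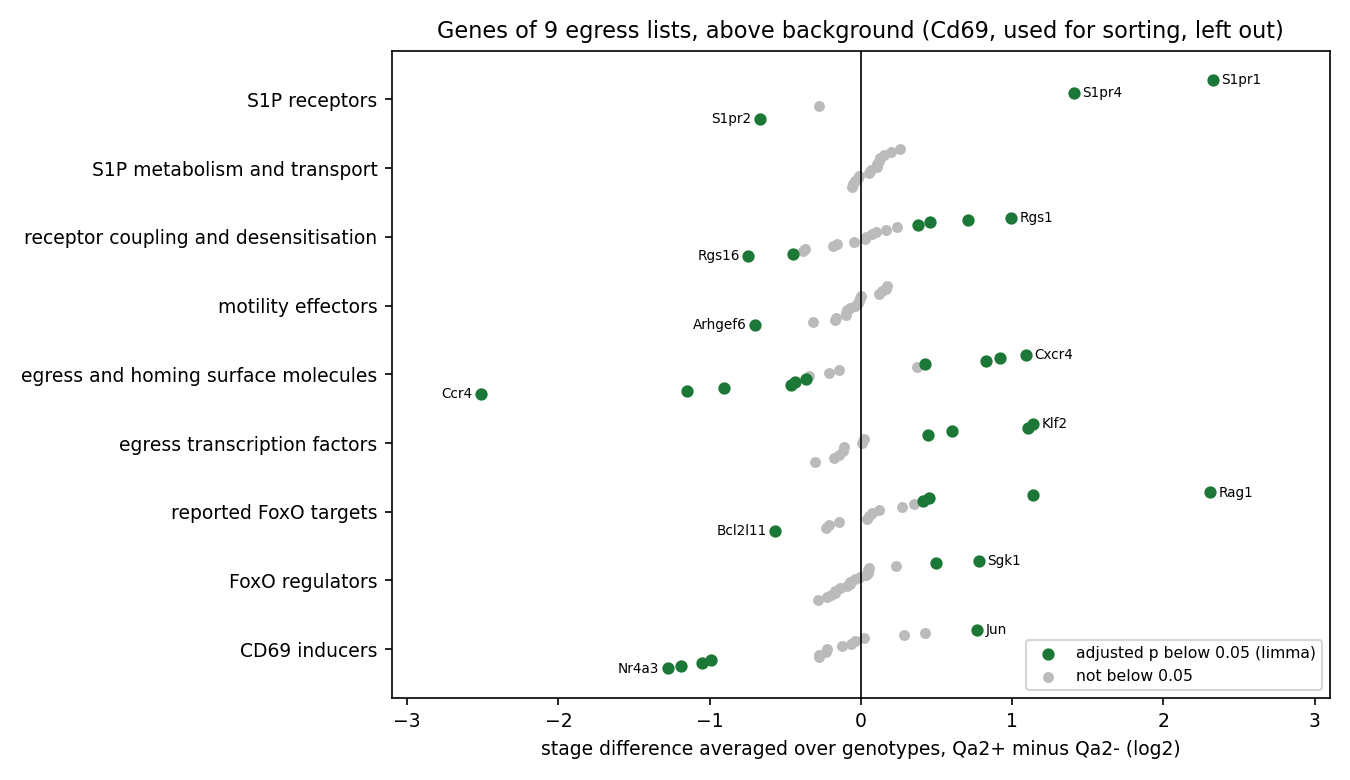
Stage difference averaged over genotypes (horizontal axis, log2, Qa2+ minus Qa2-) of the genes above background in each of 9 lists, 1 point per gene, green where limma's adjusted p was below 0.05; a gene in several lists appears in each, and Cd69, which the sort used, is left out. S1pr1 at 2.33 lies farthest right and the chemokine receptor gene Ccr4 at -2.51 farthest left, while the S1P metabolism list has no green point.

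Of 14 egress and homing surface genes other than Cd69, 4 rose and 6 fell in Qa2+ cells, which is 28.6% and 42.9% beside 4.77% and 8.35% of all genes. The integrin genes Itgb7 and Itga4, whose products pair in gut homing, rose by 0.92 and 0.82 (limma, Benjamini-Hochberg adjusted p = 0.00197 and 0.00414). Cxcr4, the CXCL12 receptor gene, rose by 1.09 and Selplg, the P-selectin ligand gene, by 0.42 (adjusted p = 0.000969 and 0.0355). Ccr4, Ccr9, Plxnd1, Itgb1, Itgal and Itgb2 fell, and Itgb2 lay at the threshold and was not called after centring or quantile normalization (adjusted p = 0.11 and 0.0632). The stage difference of Ccr9 was -0.383 in miR-142-/- and -1.915 in WT, and that of Ccr4 was -2.79 and -2.23. Ccr7, the receptor for entry into the medulla and lymph nodes, differed by -0.21 (adjusted p = 0.263). The median stage difference of these genes was -0.29 in miR-142-/- and -0.31 in WT, beside -0.06 in both genotypes over all genes.

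Between genotypes, counting genes at least 1.5-fold apart, miR-142-/- exceeded WT for 2 genes of this list of 15 with Cd69 and fell short for 3 in Qa2+ cells, and for 1 and 2 in Qa2- cells. Over all genes 4.56% were that much higher and 4.88% lower in Qa2+ cells, while in Qa2- cells 3.11% were higher and 3.74% lower. Cxcr4 was the higher gene in both, by 2.26-fold in Qa2+ and 2.34-fold in Qa2- cells. Ccr9, which differed by 1.58 in Qa2+ and 0.05 in Qa2- cells, was the other in Qa2+ cells. The adhesion gene Itgae differed by -1.58 in Qa2+ cells and -1.41 in Qa2- cells, and Cd44 by -0.81 in Qa2+ cells and -1.03 in Qa2- cells. For Ccr4 the differences were -0.86 in Qa2+ cells and -0.30 in Qa2- cells.

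**Figure D4:**
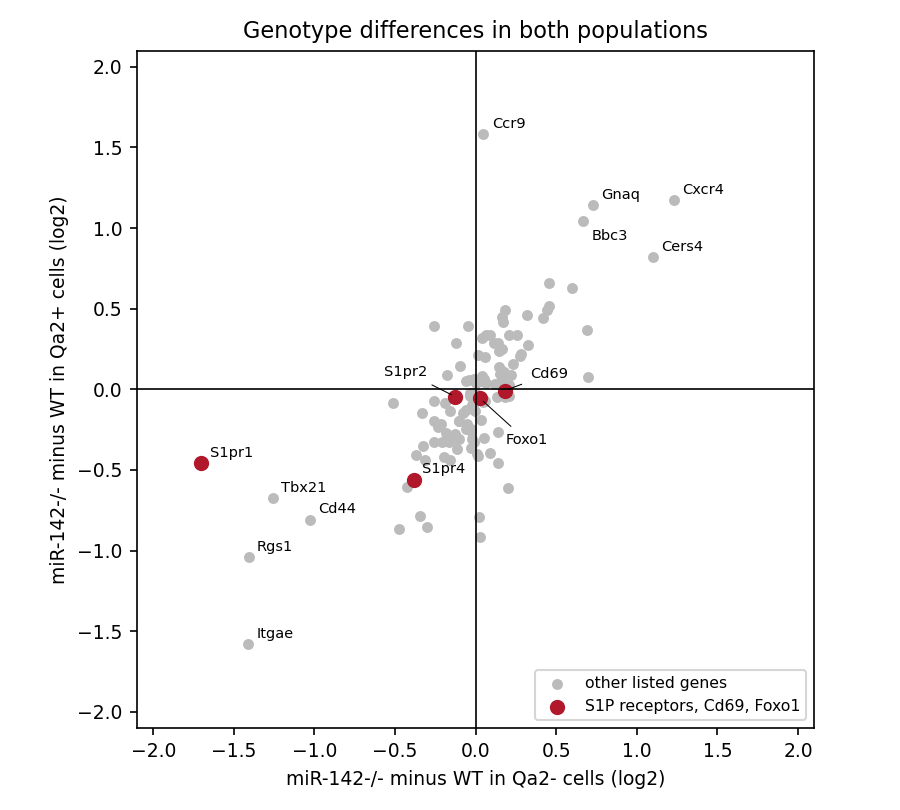
Genotype difference, miR-142-/- minus WT (log2), in Qa2- cells (horizontal axis) and in Qa2+ cells (vertical axis) for the genes of the same 9 lists above background, 1 point per gene, with S1pr1, S1pr2, S1pr4, Cd69 and Foxo1 in red and S1pr5 among the grey points. S1pr1 lies farthest left at -1.70 but at -0.46 on the vertical axis, and S1pr2, Cd69 and Foxo1 lie near the origin.

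Among 11 egress transcription factor genes above background, 4 rose and 0 fell in Qa2+ cells by limma. The shares were 36.4% and 0.00%, beside 4.77% and 8.35% of all genes. The counts were the same at an unadjusted p below 0.05, where 3732 of all 12591 genes passed in either direction. Besides Foxo1 and Klf2 the genes that rose were Klf3, by 1.10, and Klf6, by 0.60 (limma, Benjamini-Hochberg adjusted p = 0.0027 and 0.0086). Foxo3 and Foxo4 differed by -0.11 and 0.01 (adjusted p = 0.498 and 0.977), and Foxo4 was higher in miR-142-/-, by 0.45 among Qa2+ cells and 0.42 among Qa2- cells.

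Of 14 reported FoxO targets, 4 rose and 1 fell in Qa2+ cells, which is 28.6% and 7.14% beside 4.77% and 8.35% of all genes. After centring 6 rose, Fbxo32 and Bcl6 among them (limma, Benjamini-Hochberg adjusted p = 0.0221 and 0.044), and after quantile normalization 5. As deposited, besides Klf2 they were Rag1, a recombinase gene that also marks double-positive thymocytes, by 2.31, the stress gene Sesn1 by 0.45 and Txnip, a thioredoxin inhibitor gene, by 0.41 (limma, Benjamini-Hochberg adjusted p = 0.000469, 0.0271 and 0.04). The death gene Bcl2l11 fell by 0.56 (adjusted p = 0.0472). Il7r, the interleukin-7 receptor gene, and Cdkn1b, a cell cycle inhibitor gene, differed by -0.15 and 0.07 (adjusted p = 0.422 and 0.663). The list's median genotype difference was 0.18 among Qa2+ cells and 0.16 among Qa2- cells, beside 0.00 over all genes in each. In Qa2+ cells 2 targets were at least 1.5-fold higher in miR-142-/- and 2 lower, beside 4.56% and 4.88% of all genes. The death gene Bbc3 (1.04) and Txnip (0.66) were higher, and Klf2 (-0.87) and Rag1 (-0.61) lower. In Qa2- cells Bbc3 alone was that far apart, at 0.67, beside 3.11% of all genes higher and 3.74% lower.

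Of 18 genes that regulate FoxO proteins, 2 rose and 0 fell in Qa2+ cells: Sgk1, a kinase that phosphorylates FOXO factors, by 0.78 and the phosphoinositide kinase gene Pik3cd by 0.50 (limma, Benjamini-Hochberg adjusted p = 0.00439 and 0.0176). The shares were 11.1% and 0.00%, beside 4.77% and 8.35% of all genes. At an unadjusted p below 0.05 the counts were 3 and 1, where 3732 of all 12591 genes passed in either direction. Akt1 and Akt2 differed between stages by 0.23 and 0.04 (adjusted p = 0.162 and 0.804). Pik3r1 and Phlpp1 were higher in miR-142-/- Qa2- cells by 0.69 each, against 0.37 and 0.08 in Qa2+ cells.

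Of 15 inducers of Cd69, mostly genes of T cell receptor and interferon signalling, 1 rose and 4 fell in Qa2+ cells, which is 6.67% and 26.7% beside 4.77% and 8.35% of all genes. Egr1, Egr2, Nr4a1 and Nr4a3 fell by 1.05, 0.99, 1.19 and 1.28 (limma, Benjamini-Hochberg adjusted p = 0.00114, 0.00187, 0.00283 and 0.00648), and the AP-1 subunit gene Jun rose by 0.77 (adjusted p = 0.00334). With Jun, 3 rose after centring and 2 after quantile normalization, where 1076 and 980 of all 12591 genes rose, against 600 as deposited. Among Qa2+ cells, miR-142-/- read lower than WT by 1.5-fold or more for 3 of the 15 and higher for 0, beside 4.88% and 4.56% of all genes. The 3 were Nr4a3 at -0.92, Fos at -0.79 and Irf7 at -0.79, while Cd69 there differed by -0.01. In Qa2- cells none was that far apart, beside 3.74% of all genes lower and 3.11% higher. Egr1 was at -0.01 and Cd69 at 0.18 there.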

How the data were processed

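Expression was measured on 4 Affymetrix Mouse Gene 1.0 ST arrays, 1 per sorted population of pooled mice. The authors deposited normalized log2 values, 1 per probe set and array. The submitters' processing notes list RMA and Partek, and their versions are not given in the sources used here. Over all probe sets, array medians lay from 6.61 to 6.74. Precision is limited by the number of arrays.

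Of 35557 probe sets, 21789 had 1 listed gene, and each of 19938 genes took the one with the highest mean. Close paralogs may cross-hybridise. Stage was fitted in limma 3.58.1 under R 4.3.3, blocking on genotype (2 pairs, residual degrees of freedom 1, prior 6.94), over 12591 genes above background, two-sided, with Benjamini-Hochberg adjustment at 0.05. The pairing comes from the pools, since both populations of a genotype came from the same mice. Other comparisons are log2 differences, counted at 1.5-fold. Alternatives were median centring, quantile normalization, averaged probe sets, no filter, no block and an intensity trend.

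Genes, lists and tests were chosen with earlier results of these data known. Text names the chosen genes, Klf2, the other S1P receptors, list members past the limma threshold or among the 4 largest differences of a list, genes nearest in profile, and some further members for their role. Promoter and microRNA sequences are from RefSeq (GRCm38.p6).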

Additional observations from a re-analysis of the deposited data

How the results depend on the processing

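Leaving out the genotype block ended the calls of the 4 genes tested by limma at unchanged differences of 2.33 (S1pr1), 1.41 (S1pr4), -0.67 (S1pr2) and 0.44 (Foxo1), with Benjamini-Hochberg adjusted p-values of 0.348, 0.321, 0.321 and 0.33. That of Klf2 (1.14) was also lost, and 0 genes were called higher and 0 lower, with 1544 at an unadjusted p under 0.05 against 3732 with the block. The other 5 alternatives of that fit kept direction and call for these 5 genes. Of the genes called, 600 were higher and 1051 lower as deposited, 1076 higher after centring, 980 higher after quantile normalization and 1593 lower without the filter on dim genes. Counting WT stage differences of 1.5-fold or more, Qa2+ cells were higher for 339 genes and lower for 465 as deposited, against 526 and 296 after centring, with 309 lower after quantile normalization. Each genotype, stage and difference-of-differences value of the 5 genes moved by less than the receptor gene standard deviation under centring and quantile normalization. Even so, S1pr2, Foxo1 and S1pr4 crossed the 1.5-fold size in 1 comparison each. Averaging probe sets is no check on these values, since each of the genes has 1 probe set. It could alter their limma calls only through the other genes. No replicate could be left out, since each group held 1 array.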

Other observations

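Cd69 lies in the natural killer gene complex among other C-type lectin genes. Of 15 such genes 5 were above background. By limma at an adjusted p below 0.05, 0 rose and 0 fell between stages, beside 4.77% and 8.35% of all genes. At an unadjusted p below 0.05, 0 were higher and 1 lower, where 3732 of all 12591 genes passed in either direction. Clec2d, the ligand of the NKR-P1 inhibitory receptors, read log2 11.07 in miR-142-/- and 11.03 in WT Qa2+ cells, against 11.19 in miR-142-/- and 11.11 in WT Qa2- cells. Clec2i, a relative, read 11.09 in miR-142-/- and 10.72 in WT Qa2+ cells, against 11.33 in miR-142-/- and 10.95 in WT Qa2- cells. Their stage differences were -0.10 and -0.23 (limma, Benjamini-Hochberg adjusted p = 0.54 and 0.158). Klrb1f, an NKR-P1 receptor gene, had genotype differences (miR-142-/- minus WT) of -0.46 in Qa2+ cells and -1.41 in Qa2- cells, and Klrd1, below background in miR-142-/-, read 6.13 in WT Qa2+ and 7.96 in WT Qa2- cells.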
